A study of Homo sapiens with 9 samples.

Results

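Readthrough regions are stretches of RNA downstream of a gene's annotated end, also called downstream-of-gene regions. The members described here were selected by position: they are the 228 regions on chromosome 19 among the 2541 regions that the authors' deposited table lists for UBE3D knockout cells against wild-type cells. The second deposited table, for knockout cells with UBE3D put back against knockout cells, lists 217 of the 228 among its 2396 regions. A region was listed because the authors detected RNA there, so the level of a region took part in choosing it. By the symbol of the gene each region follows, its host, 96 regions have a zinc finger host and 132 another host. Of the 228 regions, 214 carry 1 gene name and 14 carry several.

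Zinc finger genes encode DNA-binding proteins. They lie in clusters along chromosome 19, and many carry a KRAB domain and silence repeated sequences. An RNA ends when the cleavage and polyadenylation machinery reads a poly(A) signal, usually the hexamer AATAAA or a close variant, and CPSF3 (CPSF73) cuts the RNA a short way past it. Polymerase goes on past the cut until it is released, and RNA that was not cut runs into the sequence downstream.

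Poly(A) RNA was sequenced from HEK293, a human embryonic kidney cell line, in 9 libraries. Of these, 3 were made from knockout cells, whose UBE3D gene was disrupted by CRISPR/Cas9 (KO), 3 from those cells after UBE3D had been returned to them (addback) and 3 from unedited wild-type cells (WT). UBE3D encodes a ubiquitin ligase of the E3 class, and the question put by the series is how its loss affects gene expression and readthrough RNA. The samples are labelled as pooled, with no word on separate cultures or on the number of clones, so p-values measure only the spread between these libraries, which may be technical.

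The libraries held 23088295 to 37508780 gene counts. UBE3D, the targeted gene, stood at 19.5, 21.4 and 26.6 CPM (counts scaled to library size) in WT, at 13.2, 15.8 and 14.4 in KO and at 3348, 3295 and 2748 in addback libraries. UBE3D RNA was thus still present in KO libraries and lay below WT in each of them (log2 fold -0.63 ± 0.13, edgeR quasi-likelihood test with Benjamini-Hochberg adjustment, adjusted p = 0.00404), a call lost with TMM factors from all tested genes (-0.28, adjusted p = 0.142). All 9 HEK293 marker genes were above 1 CPM in every library. KO libraries stand apart in another way: 399 odorant receptor genes, which belong to the nose, took 344 to 1697 CPM in WT, 317 to 1389 in addback and 7.66 to 8.36 in KO. Summed liver markers (3 genes) ran from 3.42 to 29.3 CPM in WT, 3.79 to 13.2 in addback and 0.213 to 0.722 in KO, and no liver marker was at 0 in every library of a group. Summed blood markers (4 genes) ran from 34.2 to 85.6, 41.3 to 64.9 and 26.5 to 32.8 CPM in the same order, and breast markers (4 genes) from 43.1 to 69.3, 45.1 to 65.4 and 30.0 to 35.7. This background is tied to genotype, so for low genes it and the knockout cannot be told apart. Its part in the region changes was not tested, because the region tables give no values per library.

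Each of the 228 regions began within 1 base of the annotated end of a gene in its name. For the 14 regions with several names, that gene need not be the one taken as host. The hexamers AATAAA and ATTAAA, and no other variant, were therefore looked for in the last 40 bases of the annotated transcript, on the transcript's own strand. A GENCODE v29 transcript ended within 10 bases of the region's start for 69 of the 96 zinc finger hosts and for 90 of the 132 others. AATAAA was found in 53.6% of the matched zinc finger ends and ATTAAA without AATAAA in 14.5%, while 31.9% held neither. Among the other hosts these shares were 62.2%, 10.0% and 27.8%, and over the 1673 matched ends of all chromosomes 55.8%, 14.8% and 29.3%. Absence of these letters in the window says nothing about where the RNA is cut.

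The last 30 bases of 10 host transcripts are shown because they lie just before regions described below and hold, or lack, AATAAA. They are GENCODE v29 transcript sequences on hg38, written 5′ to 3′ with an AATAAA in capitals. The first 5 hosts have regions that were higher in KO than in WT (RPS19, chr19:41871387-41871416, plus strand; PSG4, chr19:43192702-43192731, minus; ZNF414, chr19:8510580-8510609, minus; ZNF226, chr19:44177654-44177683, plus; DYRK1B, chr19:39825350-39825379, minus). The other 5 have regions that were lower (ZNF160, chr19:53066614-53066643, minus; ZNF701, chr19:52587145-52587174, plus; ZNF708, chr19:21291160-21291189, minus; AKAP8, chr19:15353521-15353550, minus; ZNF611, chr19:52702813-52702842, minus). Hosts with the capitals and hosts without them occur in both sets. Ends without capitals can hold a close variant: tataaa in ZNF226, agtaaa in DYRK1B and actaaa in ZNF611. A lack of capitals is therefore not a lack of a poly(A) signal.
RPS19: tgctgggttAATAAAttgcctcattcgtaa
PSG4: gcagAATAAAacatgtaccacatttgctaa
ZNF414: ggacAATAAAgaaggcgccatgagccagcc
ZNF226: gaaaaaaaatctataaaatgattctttgtg
DYRK1B: gctgtacccccagtaaagagctttctcaca
ZNF160: taactAATAAAatagaatggtttttctcta
ZNF701: aatatggaaAATAAAttacattatttgtaa
ZNF708: AATAAAatgcagtacatttttaaattttca
AKAP8: aaaatggaAATAAActgcttgaaaagacga
ZNF611: cttttaactaaacatcaaaatgtactttaa

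In the authors' deposited table, regions with a zinc finger host had a median length of 11016 bases and regions with another host 9311 bases, against 11000 over all chromosomes. The shortest chromosome 19 region measured 4049 bases. The longest followed 2 noncoding genes near the centromere: the region of LOC101927151 spans 343200 bases (chr19:27806781-28149980, plus strand) and that of LINC00662 spans 247200 (chr19:27543294-27790493, minus strand). The 2 regions run in opposite directions, away from each other. The longest region with a zinc finger host, 147200 bases, follows ZNF429 (chr19:21538278-21685477, plus strand). After these, no region with another host was longer than the 49230 bases of ARHGEF1 and no other with a zinc finger host was longer than the 41400 bases of ZNF846.

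Most regions stopped at a neighbouring gene. Of the 228, 112 ended at the start of the next gene on the same strand and 47 at a gene on the opposite strand, and the 69 that ended at neither all had lengths that are multiples of 200 bases. Among the 96 regions with a zinc finger host, 49 ended at a same-strand gene, which was itself a zinc finger gene in 41 cases, and 13 at an opposite-strand gene. Among the 132 others these numbers were 63, with 6 at a zinc finger gene, and 34. For the regions that stop at a gene, the listed length is therefore the distance to that gene. No region held more than 2 exon bases of another gene of the count table's annotation.

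Levels are base means, the authors' normalised counts averaged over libraries, and are compared between regions per kilobase. In the authors' deposited table of KO against WT the median was 33.1 per kilobase with a zinc finger host and 20.5 with another host, against 18.4 over all chromosomes. The hosts themselves had the opposite order: their median level was 6.45 CPM per kilobase for zinc finger hosts and 18.2 for others. Over the regions with a base mean of at least 20, level per kilobase of region and host went together weakly among zinc finger hosts (Spearman correlation 0.39, n = 90) and hardly among others (0.05, n = 109). These are descriptions across regions that share the same libraries. Regions with a zinc finger host were 42.1% of the chromosome 19 regions and held 51.6% of their summed base mean, and the 10 regions with the highest base means held 34.7%.

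The region with the highest base mean, 10216, follows ZNF8 (chr19:58295889-58327020, plus strand, 31132 bases, 328 per kilobase). The region of ZNF121 (chr19:9552729-9565728, minus strand) reached 340 per kilobase and that of ZNF221 (chr19:43967601-43984171, plus strand) 313. The highest level per kilobase, 1553, was in the 5705 bases after RPS19, a protein of the small ribosomal subunit (chr19:41871417-41877121, plus strand, base mean 8858). PROSER3 followed at 443 per kilobase. The hosts of these regions had counts in every library. RPS19 stood at 1239, 1074 and 1116 CPM in WT and at 1550, 1393 and 1465 in KO libraries, and ZNF8 at 26.0, 30.0 and 29.4 in WT and at 27.3, 23.3 and 26.8 in KO.

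Among these high regions, that of RPS19 changed most and is described below. In KO against WT the authors' deposited table gives log2 folds of -0.25 ± 0.06 for the region of ZNF8, -0.61 ± 0.07 for that of ZNF221, -0.44 ± 0.06 for that of ZNF121 and -0.19 ± 0.07 for that of ZNF460, all with adjusted p under 0.05. In addback against KO the same regions had folds of 0.28 ± 0.06, 0.43 ± 0.07, 0.38 ± 0.06 and 0.27 ± 0.06 in the authors' deposited table. Of their hosts, ZNF221 stood at 18.1, 19.1 and 25.6 CPM in WT, at 13.8, 10.7 and 13.1 in KO and at 16.9, 17.6 and 22.7 in addback, so KO libraries were below all others. ZNF460 stood at 8.84, 12.4 and 14.0 in WT and at 8.99, 6.23 and 8.44 in KO, where the groups overlap. The regions of PROSER3, LOC101927151 and RNF225 were not called in KO against WT in the authors' deposited table (adjusted p = 0.186, 0.089 and 0.36).

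A high region did not always follow a high host. The region of RNF225, a RING finger gene, had a base mean of 2799 (chr19:58397080-58408697, plus strand, 241 per kilobase), while RNF225 itself stood at 0.259, 0.510 and 0.285 CPM in KO libraries. From which gene the RNA in this region started was not tested. In all, 15 hosts had under 1 CPM in KO (4 of them zinc finger genes), and 14 of their regions had base means from 61.6 to 2799. Only 3 hosts, 0 of them zinc finger genes, were under 1 CPM in all groups, so most of the 15 were higher in WT or addback. Base means are averages over libraries and do not give the level of these regions in KO alone.

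**Figure D1:**
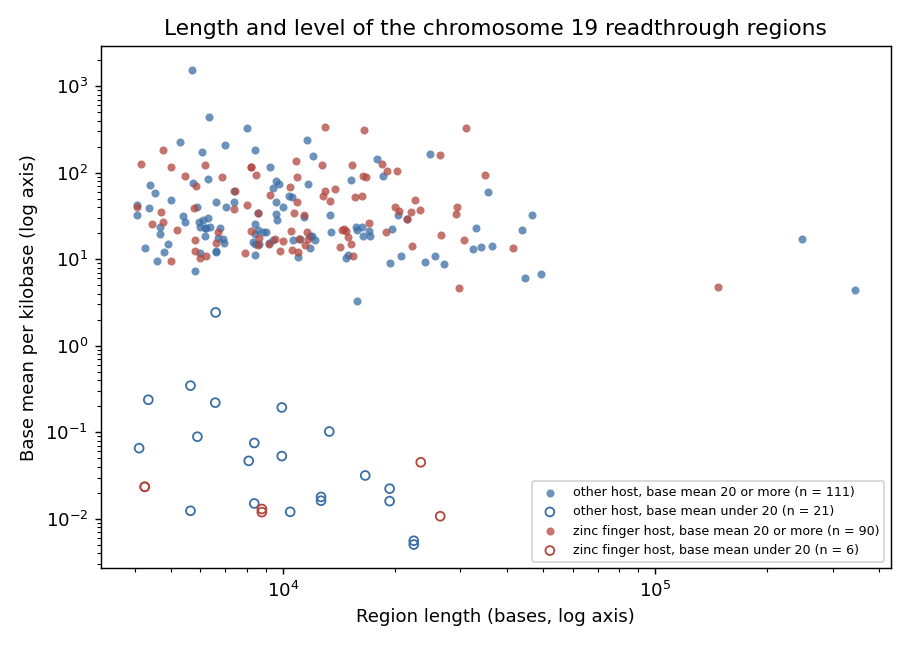
Length of each region (x axis, bases, log axis) against its base mean per kilobase (y axis, log axis) in the authors' table of KO against WT, coloured by host. Filled points have a base mean of at least 20 (90 with zinc finger hosts, 111 with others), and the 27 open points below them are the regions with almost no reads.

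A separate set of 27 regions, 6 with a zinc finger host and 21 with another, was nearly empty, with base means from 0.0699 to 16.0 in the authors' deposited table. The remaining 201 began at 42.6. The hosts of the nearly empty regions ranged from 0.0345 CPM in KO (FCER2) to 238 (SAFB), with a median of 50.6. Of the 27, 26 ended at a gene on the opposite strand, as did 21 of the 201. Another listed region on the opposite strand covered at least 90% of the length in 16 of the 27 and in 0 of the 201. An example is the stretch between TGFB1, the growth factor, and CCDC97, which is listed once for each gene (chr19:41324883-41330531 minus and chr19:41324884-41330532 plus) with base means of 0.0699 and 1.95, although these genes had 163 and 92.2 CPM in KO. The pairs ZNF814 and ZNF587, ZNF461 and ZNF382, JOSD2 and EMC10, and SAFB and C19orf70 share a stretch in the same way. How the authors counted reads where strands overlap is not given in the sources used here, and its part in these low values was not tested. By the authors' adjusted p, 0 of the 27 were called in KO against WT, and 1 had an unadjusted p under 0.05. The 11 regions missing from the second table are all among these 27 by their hosts (CARD8, ZNF587, EPN1, EMC10, ZNF814, JOSD2, ZNF461, MRPS12, TGFB1, ZNF382 and NLRP9).

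From WT to KO, more regions after zinc finger genes were called lower than higher, and more regions after other genes higher than lower. The authors' deposited table puts 48 of 96 regions with a zinc finger host lower (50%) and 8 higher (8.33%) at an adjusted p under 0.05. With another host, 27 of 132 were lower (20.5%) and 44 higher (33.3%). Of all 2541 regions there, 49.8% were called, 24.8% higher and 25.0% lower. The median log2 fold was -0.31 with a zinc finger host and 0.12 with another, against 0.00 over all regions. Zinc finger hosts on other chromosomes had a like split, with 42 of 96 regions lower and 8 higher. These are the authors' own comparisons, whose values are part of the table that lists the regions, and the difference between the kinds of host was not tested.

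In the second comparison more zinc finger regions were called higher than lower. The authors' deposited table of addback against KO puts 43 of 92 regions with a zinc finger host higher (46.7%) and 2 lower (2.17%). With another host, 32 of 125 were higher (25.6%) and 22 lower (17.6%). Over all 2396 regions 34.1% were called, 18.6% higher and 15.5% lower. The median log2 fold was 0.25 with a zinc finger host, 0.05 with another and 0.00 over all. Both tables use the same KO libraries, so opposite directions in them are not independent. The folds in the second table are shrunken towards 0 and those in the first are not, so their sizes cannot be compared.

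**Figure D2:**
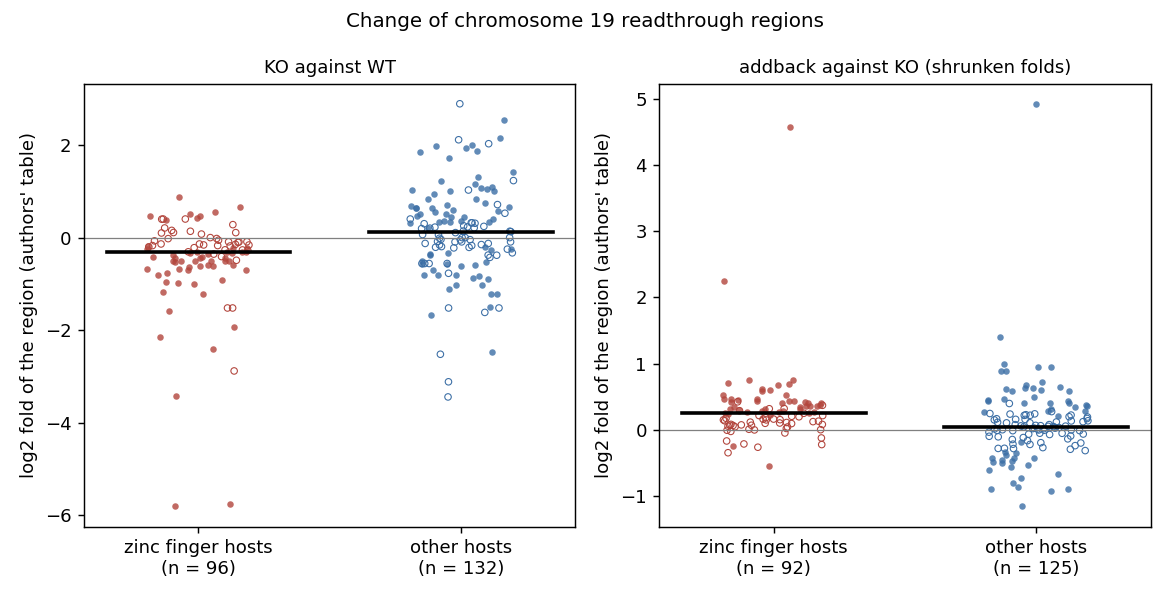
Log2 fold of each chromosome 19 region (y axis) by kind of host (x axis) in the authors' tables of KO against WT and of addback against KO. Filled points have an adjusted p under 0.05, black bars are medians, and the zinc finger median lies at -0.31 in the first comparison and at 0.25 in the second.

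The regions that were most clearly higher in KO follow genes with other functions. In the authors' deposited tables the region of SNRPA, the A protein of the U1 splicing particle (chr19:40765393-40775178, plus strand), had a log2 fold of 2.55 ± 0.10 in KO against WT (adjusted p = 1.03e-135) and of -0.87 ± 0.10 in addback against KO (adjusted p = 1.76e-18). The region of RPS19 had folds of 1.97 ± 0.06 (adjusted p = 1.09e-206) and -0.73 ± 0.06 (adjusted p = 3.9e-35) in the authors' deposited tables. That of DYRK1B, a protein kinase (chr19:39800548-39825347, minus strand), had 1.05 ± 0.06 and -0.81 ± 0.06, again in the authors' deposited tables. The genes themselves moved far less. SNRPA stood at 136, 133 and 126 CPM in WT, at 149, 147 and 146 in KO and at 141, 134 and 126 in addback, so that every KO library lay above the rest. Its edgeR log2 fold in KO against WT was 0.16 ± 0.05 (quasi-likelihood test with Benjamini-Hochberg adjustment, adjusted p = 0.0159). RPS19 was higher in each KO library than in any WT library (0.36 ± 0.07, edgeR adjusted p = 0.00215), and DYRK1B overlapped between KO and WT (-0.08 ± 0.07, edgeR adjusted p = 0.293). With 2 times the estimated background subtracted, the calls of SNRPA and RPS19 were lost (0.03 and 0.19, edgeR adjusted p = 0.556 and 0.0608). Their own estimated backgrounds were only 1.05% and 0.0713% of their mean levels. The scaling factors and the fit were computed anew on the subtracted counts of all genes.

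Some regions near the end of the short arm, named for their large folds, showed a like gap between region and host. The authors' deposited table gives log2 folds in KO against WT of 1.86 ± 0.16 for the region of WDR18, 2.16 ± 0.25 for that of C19orf24, 1.01 ± 0.09 for that of MBD3, a subunit of the NuRD chromatin complex, and 1.42 ± 0.11 for that of SLC39A3, a zinc transporter. In addback against KO these regions had folds of -1.16 ± 0.18, -0.92 ± 0.24, -0.89 ± 0.09 and -0.90 ± 0.12 in the authors' deposited table, all with adjusted p under 0.05. Of the hosts, MBD3 stood at 203, 180 and 168 CPM in WT, at 191, 180 and 190 in KO and at 194, 182 and 167 in addback. SLC39A3 stood at 40.4, 40.7 and 37.3 in WT, at 35.8, 37.7 and 38.9 in KO and at 40.7, 39.5 and 32.6 in addback. Both genes overlapped between all groups. WDR18 was lower in KO while its region was higher (edgeR log2 fold -0.22 ± 0.07, adjusted p = 0.0211), a call that was lost without KO 3, WT 1 or WT 2 (adjusted p 0.0541 to 0.0903). With TMM factors from all tested genes the sign of WDR18 turned (0.11, adjusted p = 0.479). Between 1 and 2 Mb, 5 of the 6 regions with a base mean of at least 20 were higher and 0 lower in the authors' deposited table, where 24.8% of all regions were higher. The region left out there, that of BTBD2, is nearly empty. The regions of WDR18 and SLC39A3 are not among those 6. Other regions nearby went otherwise in the authors' deposited table. That of ARID3A, next to WDR18, was lower (-0.20 ± 0.09, adjusted p = 0.0374) beside a host at -0.21, and that of TPGS1 was not called (adjusted p = 0.143).

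PSG4, a pregnancy-specific glycoprotein gene, and ONECUT3, a homeobox gene, are low in these cells. Their regions had log2 folds, in the authors' deposited table, of 1.99 ± 0.43 and 1.94 ± 0.17 in KO against WT. PSG4 stood at 1.58, 10.1 and 10.8 CPM in WT and at 3.85, 7.03 and 4.63 in KO, and the KO libraries lay inside the WT range. The estimated background of PSG4 came to 32.4% of its mean level and that of ONECUT3 to 241%. ONECUT3 stood at 0.168, 1.21 and 0.271 CPM in WT and at 0.777, 1.35 and 1.11 in KO. It was not called (0.94 ± 0.72, edgeR adjusted p = 0.278).

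Only 8 regions with a zinc finger host were called higher in KO against WT. The authors' deposited table gives the region of ZNF414 a log2 fold of 0.89 ± 0.26, that of ZNF787 0.66 ± 0.18, that of ZNF773 0.55 ± 0.13, that of ZNF324B 0.52 ± 0.11, that of ZNF568 0.47 ± 0.09 and that of ZNF226 0.38 ± 0.07. Of the hosts of these 8, 3 were called lower and 0 higher by edgeR. ZNF226 stood at 71.4, 72.9 and 75.6 CPM in WT and at 66.5, 64.8 and 69.2 in KO, so its libraries did not overlap and moved against the region. Its edgeR fold was -0.13 ± 0.05 (adjusted p = 0.0380), but with factors from all tested genes the sign turned (0.21, adjusted p = 0.0691), and leaving out any WT library, KO 1, KO 2 or addback 2 lost the call (adjusted p 0.0528 to 0.118).

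The 3 lowest folds from WT to KO among called regions were in regions after zinc finger genes, ZNF826P, ZNF160 and ZNF701. In the authors' deposited table the region of ZNF826P, a zinc finger pseudogene (chr19:20390059-20398658, minus strand), had a log2 fold of -5.81 ± 0.69 in KO against WT (adjusted p = 5.96e-16) and of 4.58 ± 0.69 in addback against KO (adjusted p = 2.35e-10). Its host had 55, 102 and 149 counts in WT libraries, 3, 1 and 0 in KO and 23, 90 and 95 in addback. The region of ZNF160 (chr19:53060615-53066614, minus strand) had -5.76 ± 0.50 in KO against WT (adjusted p = 1.75e-28) in the authors' deposited table. ZNF160 itself stood at 25.5, 25.6 and 38.5 CPM in WT, at 0.481, 0.474 and 0.336 in KO and at 3.23, 8.84 and 10.8 in addback. The 3 groups did not overlap, and addback libraries lay between the others. By edgeR ZNF160 fell in KO (-6.12 ± 0.50, adjusted p = 0.000143), rose in addback against KO (4.15 ± 0.47, adjusted p = 0.0014), and its estimated background was 35.6% of its mean level. The fall in KO kept its sign with the background subtracted at 1 or 2 times its estimate, while the fold in addback against KO turned to -6.58 at 2 times (edgeR adjusted p = 0.00825). Subtraction lowered WT and addback counts alone, because the estimate was 0 in every KO library. That turn therefore cannot be read as a fall in addback.

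Regions listed for ZNF701, ZNF816, ZNF878 and ZNF611 fell with their hosts. The region set beside ZNF816 is also named for ZNF321P and for the readthrough gene of both, and ZNF816 was taken as host by its counts. In the authors' deposited table their log2 folds in KO against WT were -3.43 ± 0.50, -2.41 ± 0.25, -2.14 ± 0.31 and -1.59 ± 0.16. ZNF701 stood at 8.37, 8.67 and 17.3 CPM in WT, at 2.40, 1.42 and 2.12 in KO and at 3.87, 6.61 and 8.55 in addback. ZNF611 stood at 16.7, 19.7 and 33.8 in WT, at 5.73, 4.96 and 4.58 in KO and at 8.24, 15.3 and 19.5 in addback. KO libraries lay below all others for both genes, and within WT and addback the libraries numbered 1, which carry the least background, were the lowest. The part of background in this order was not tested, and between KO and the other groups it cannot be told apart from genotype. The estimated background was 51.1% of the mean level of ZNF701, 64.2% of that of ZNF816, 72.0% of that of ZNF878 and 26.9% of that of ZNF611. With that background subtracted at 2 times its estimate, the folds of ZNF701 and ZNF816 in KO against WT turned to 0.19 and 0.64 (edgeR adjusted p = 0.966 and 0.862). The estimate was 0 in every KO library, so subtraction took counts from WT and addback libraries alone, down to 0 at the lowest. At such background shares the turn follows from the subtraction itself, and it does not show how much of the fall is background. ZNF701, ZNF816 and ZNF611 lie between 52 and 53 Mb, where 10 of 11 hosts are zinc finger genes and 7 of the 11 regions were lower and 1 higher in KO against WT in the authors' deposited table, where 25.0% of all regions were lower. With a base mean of at least 20, 6 of 13 regions between 57 and 58 Mb were lower, where those of ZNF586, ZNF814 and ZNF587 are left out, and 3 of 13 between 44 and 45 Mb, which is near that share of all regions.

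The region of ZNF708 (chr19:21267761-21291160, minus strand), of 23400 bases, had a log2 fold of -0.91 ± 0.09 in KO against WT and of 0.75 ± 0.10 in addback against KO in the authors' deposited tables. ZNF708 stood at 22.7, 27.0 and 43.2 CPM in WT, at 15.6, 15.4 and 17.8 in KO and at 19.8, 25.8 and 32.5 in addback. Its KO libraries lay below all others. By edgeR it fell in KO (-0.92 ± 0.25, adjusted p = 0.0112), and its rise in addback against KO (0.68 ± 0.25, adjusted p = 0.0436) was lost without any one KO library, WT 2, addback 2 or addback 3 (adjusted p 0.0517 to 0.156).

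Not every region that fell had a host that fell. The region of ZNF146 (chr19:36238774-36269373, plus strand) had a log2 fold of -0.80 ± 0.10 in KO against WT in the authors' deposited table (adjusted p = 2.41e-13). ZNF146 itself stood at 270, 263 and 260 CPM in WT and at 340, 339 and 339 in KO, higher in every KO library (edgeR 0.36 ± 0.03, adjusted p = 7.4e-05), and its estimated background was 0.475% of its mean level. The region of AKAP8, a nuclear anchoring protein (chr19:15321122-15353521, minus strand), had -0.82 ± 0.13 in KO against WT and 0.95 ± 0.14 in addback against KO in the authors' deposited tables. AKAP8 stood at 51.6, 65.2 and 53.6 CPM in WT, at 56.0, 59.2 and 57.8 in KO and at 57.4, 64.2 and 61.4 in addback, with all groups overlapping.

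Among called regions with another host and a base mean of at least 20, that of BST2, an interferon-induced membrane protein, had the lowest fold in KO against WT. The authors' deposited tables give log2 folds of -2.48 ± 0.54 in KO against WT (adjusted p = 2.47e-05) and 4.93 ± 0.54 in addback against KO (adjusted p = 6.61e-19) for it (chr19:17377349-17402939, minus strand). BST2 stood at 1.24, 2.92 and 2.57 CPM in WT, at 0.703, 0.619 and 0.854 in KO and at 53.7, 39.6 and 72.5 in addback. Addback libraries were thus far above both KO and WT. The region of NTF4, a neurotrophin, had -1.21 ± 0.25 and 1.41 ± 0.30 in the authors' deposited tables, and those of LILRA6 and SIGLEC10, receptors of immune cells, had -0.83 ± 0.21 and -0.87 ± 0.19 in KO against WT. The hosts of these 3 regions carried estimated backgrounds of 53.0%, 51.8% and 52.6% of their mean levels. The region of MAU2, a subunit of the cohesin loader (chr19:19358755-19374554, plus strand), had -1.66 ± 0.41 in KO against WT in the authors' deposited table. This region was low, with a base mean of 52.5 or 3.32 per kilobase. The median was 26.2 per kilobase over the chromosome 19 regions with a base mean of at least 20. MAU2 itself stood at 110, 118 and 106 CPM in WT and at 125, 130 and 127 in KO. MAU2 thus was higher in every KO library (edgeR 0.20 ± 0.05, adjusted p = 0.00615, or 0.0527 with 2 times the estimated background subtracted). Its own estimated background was 2.61% of its mean level. The region of the pseudogene HNRNPA1P10 had -1.04 ± 0.08 and 0.62 ± 0.08 in the authors' deposited tables, and its host was not called (-0.24 ± 0.10, edgeR adjusted p = 0.0637). The region of LINC00662, the noncoding gene with the longest minus-strand region, had -0.28 ± 0.06 and 0.41 ± 0.06 in the authors' deposited tables, while the gene overlapped between KO and WT (10.2, 8.59 and 8.44 CPM in WT and 10.5, 9.69 and 8.33 in KO).

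**Figure D3:**
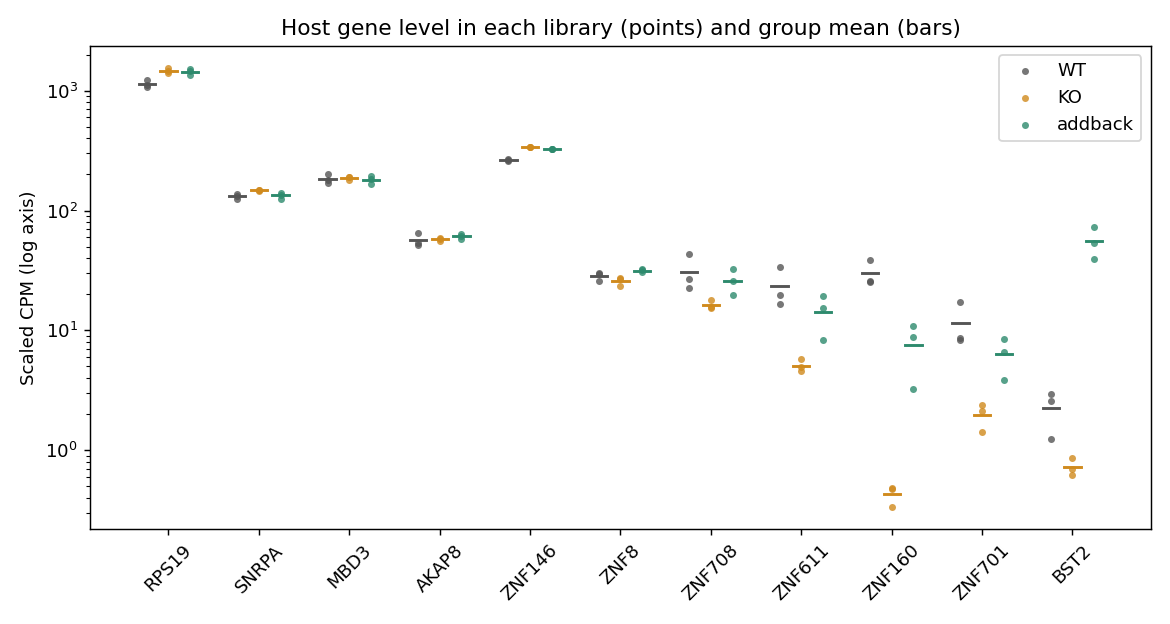
Scaled CPM (y axis, log axis) of 11 host genes in each WT, KO and addback library, with bars at the group means. ZNF160, ZNF701 and ZNF611 lie lowest in KO and BST2 highest in addback, while MBD3 and AKAP8 overlap in all groups.

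**Figure D4:**
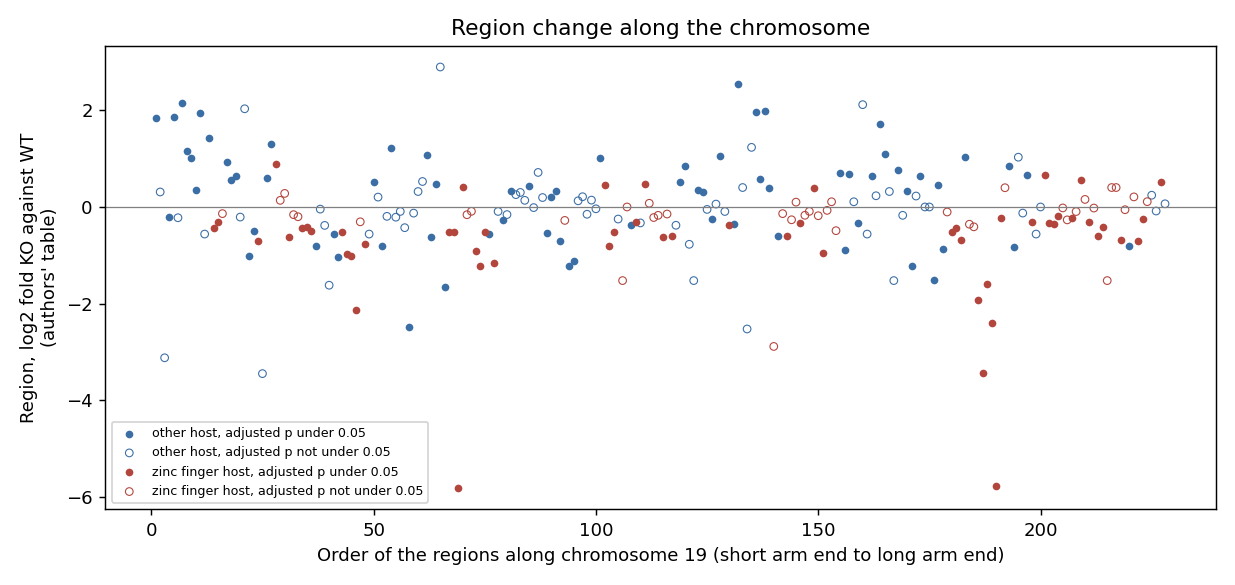
Log2 fold in KO against WT of the 228 regions in the authors' table (y axis) in their order along chromosome 19 (x axis), coloured by host and filled where the adjusted p is under 0.05. The largest falls are those of ZNF826P at -5.81 and ZNF160 at -5.76.

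The host genes were then tested as a whole. Of the 228 hosts 225 passed the filter on low counts, 96 zinc finger genes and 129 others. In KO against WT, 52 zinc finger hosts fell and 4 rose by edgeR, with a median log2 fold of -0.37. Of the other hosts, 32 fell and 31 rose, with a median of -0.06. Over all 21994 tested genes 52.7% fell and 9.31% rose, with a median of -0.47, so the share of zinc finger hosts that fell lies near the background of all genes. The 173 tested zinc finger genes of chromosome 19 that host no listed region had 99 lower and 4 higher. Odorant receptor counts were also lower in KO than in WT, and whether they are linked to these falls was not tested. Among the hosts whose estimated background was at most 10% of their mean level, 7 of 25 zinc finger genes fell and 4 rose, and 11 of 83 others fell and 30 rose. With the estimated background subtracted from the counts, 19 zinc finger hosts fell and 7 rose, and 11 others fell and 30 rose. Subtracted at 2 times its estimate, 3 zinc finger hosts fell and 7 rose, so that the split turned, and over the hosts with background at most 10% of their lowest group mean 5 fell and 4 rose. Because the estimate was 0 in every KO library, subtraction lowered WT and addback counts alone. It thus removes falls in KO by design and cannot decide how many of them are background. Scaling moved the split of called hosts as well: 29.4% of them were higher in the fit used here, 44.7% with upper quartile factors, 57.5% with DESeq2 size factors and 64.0% with TMM factors from all tested genes. With upper quartile factors, DESeq2 size factors and TMM factors from all tested genes, in that order, 39, 32 and 27 zinc finger hosts fell and 10, 15 and 17 rose, and 24, 16 and 13 others fell and 41, 50 and 54 rose.

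In addback against KO, 61 zinc finger hosts rose and 0 fell by edgeR, where 70 were higher and 0 lower at an unadjusted p under 0.05, and the DESeq2 test gave 26 higher and 7 lower. Of the other hosts 40 rose and 24 fell, a split that turned to 22 and 32 with upper quartile factors, 17 and 44 with DESeq2 size factors, 20 and 48 with the DESeq2 test and 15 and 38 with TMM factors from all tested genes. The background of all genes was 49.3% higher and 7.57% lower. Of all called hosts 80.8% were higher, against 63.8% with upper quartile factors and 45.7% with DESeq2 size factors or with TMM factors from all tested genes. With the background subtracted, 9 zinc finger hosts rose and 0 fell. The count of 125 called hosts rested on single libraries: it was 72 without KO 1, 61 without KO 2, 79 without KO 3 and 68 without addback 2 or addback 3. In addback against WT, 4 zinc finger hosts rose and 1 fell, and 10 others rose and 6 fell, where the background was 4.40% higher and 4.92% lower. That count of 21 was 11 without addback 2. Of 22 genes of 3′ end processing, listed for their role in cleavage and polyadenylation, 10 rose and 3 fell in KO against WT, 3 rose and 9 fell in addback against KO, and 1 rose and 1 fell in addback against WT. In KO against WT these were 45.5% and 13.6%. Among the 83 other hosts with background at most 10% of their mean level, 36.1% rose and 13.3% fell there. In addback against KO, 13.6% of the 22 genes rose and 40.9% fell, beside 20.5% and 27.7% of those hosts. Of the 22 genes, CPSF3 stood at 103, 106 and 114 CPM in WT and at 121, 118 and 118 in KO (edgeR 0.14 ± 0.04, adjusted p = 0.0148).

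Region calls and host calls were set side by side. Of the 48 regions with a zinc finger host that the authors' deposited table puts lower in KO against WT, 34 had a host that fell by edgeR, 1 a host that rose and 13 a host that was not called. The 44 higher regions with another host divided otherwise: 13 had a host that rose, 6 a host that fell and 25 a host that was not called. In addback against KO, 31 of the 43 higher regions with a zinc finger host had a host that rose and 12 a host that was not called. Of the 22 lower regions with another host in that comparison, 5 had a host that fell, 2 a host that rose and 15 a host that was not called.

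The difference between region fold and host fold was taken for each region with a base mean of at least 20. In KO against WT its median was 0.20 on the log2 scale with zinc finger hosts (n = 90; region above host in 60) and 0.33 with other hosts (n = 109; 73), against 0.25 over all chromosomes (n = 2241; 1546). These offsets depend on how each table was scaled, and those of chromosome 19 lie on either side of the value over all chromosomes. The region fold followed the host fold more closely with zinc finger hosts (Spearman correlation 0.63) than with others (0.37), where all chromosomes had 0.43. These correlations run across regions that share the same libraries and are given as descriptions.

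**Figure D5:**
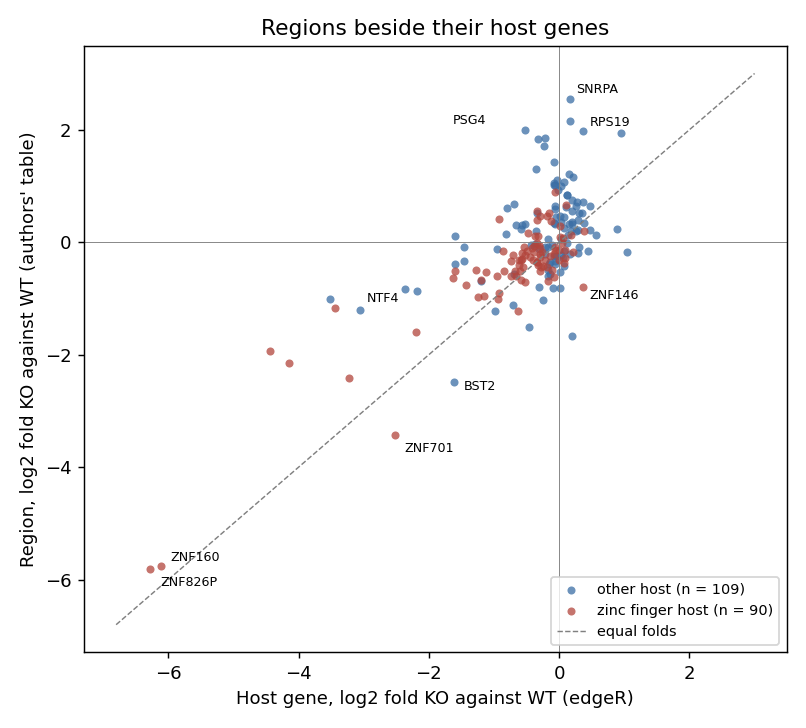
Log2 fold in KO against WT of each region in the authors' table (y axis) against that of its host gene by edgeR (x axis), for 199 regions with a base mean of at least 20, with a dashed line at equal folds. Regions with zinc finger hosts run along the line down to ZNF160 and ZNF826P, while those of RPS19 and SNRPA stand at 1.97 and 2.55 above hosts at 0.36 and 0.16.

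Region levels were last set beside the gene background. The estimated background of the gene counts averaged 34.9 counts per kilobase of coding sequence over the WT and KO libraries. Of the 90 zinc finger regions with a base mean of at least 20 in the authors' deposited table, 45 lay below that level per kilobase, as did 76 of the 111 others. Both values are on their own scales as deposited, and whether region counts carry the gene background was not tested. Of the 45 zinc finger regions below it 24 were lower and 4 higher in KO against WT, and of the 45 above it 24 were lower and 4 higher as well. Of the 76 other regions below it 20 were lower and 25 higher, and of the 35 above it 7 were lower and 19 higher.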

How the data were processed

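Gene counts of 9 libraries were deposited by the authors as raw counts per gene (26485 genes), with gene lengths. Per the submitters' processing notes, cutadapt 1.8.1, STAR 2.5.2b and DESeq2 were used on hg38; the sources used here name neither the counting program and its strand setting nor the one that found readthrough regions. The authors' deposited region tables give base means (a normalised signal), log2 fold changes with standard errors, test statistics (a score), p-values and adjusted p-values, and hold no value per library. Base means of regions with a base mean of at least 20 were 1.96 times (median, n = 201) as high in the table of KO against WT as in that of addback against KO, so levels are given from the former. For regions under 20 the median ratio was 1.00 (n = 16), so the 2 tables do not differ by a common factor. The reason was not tested. Deposited starts were raised by 1 base.

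The members and lists were chosen with earlier results of these data known. Zinc finger hosts were picked by symbol. The host is the gene that names the region. Where a region has several names, the host is the named gene with the most counts, whose own end need not meet the region. Named regions are, in each table and each kind of host, the 5 with the highest base mean, the 5 longest and the 5 with the largest folds in each direction (adjusted p under 0.05, base mean at least 20); the hosts of nearly empty regions and the genes in the pairs were named after their values were seen.

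edgeR 4.0.16, run in R 4.3.3, was fitted to the counts (1 robust quasi-likelihood fit over all libraries, genotype as the only term, 21994 genes after the filter on low counts). TMM factors came from 7872 low-background genes, whose background, the median count per kilobase of coding length over 550 tissue-restricted genes, was at most 10% of their mean. Scaled CPM use those factors. Simulated counts were used to test the fit. Same-numbered libraries deviated together in addback against WT (correlations 0.86, 0.56 and 0.72) and not in the comparisons with KO (-0.06 to 0.03). Replicates differed by more than sampling noise (chi-square per gene 1.99 to 44.5). Alternatives changed the scaling, the test, the filter, the thresholds and the libraries. Of the columns of the count table, 0 went unused.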

Additional observations from a re-analysis of the deposited data

How the results depend on the processing

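The alternatives that subtract the estimated background, and the one that leaves out regions ending at an opposite-strand gene, were chosen after seeing the data. The estimate was 0 in every KO library, so subtraction lowered WT and addback counts alone, to 0 at the lowest. Calls lost and signs turned under subtraction follow in part from this and cannot decide a cause. Called hosts numbered 119 for KO against WT, 125 when addback was set against KO and 21 for addback against WT. These became 67, 29 and 33 after subtraction of the estimated background, 39, 24 and 24 after subtracting 2 times that estimate, 71, 46 and 9 at an adjusted p limit of 0.01, and 48, 45 and 18 over the 100 hosts whose background was at most 10% of their lowest group mean. TMM factors from all tested genes gave 81 for addback against KO, and 7 for addback against WT, where DESeq2 size factors gave 7, the DESeq2 test 12 and upper quartile factors 11. With the replicate number as a block (replicate block) the counts were 136, 139 and 29. Leaving out 1 library at a time gave 84 to 125, 61 to 138 and 11 to 22. Of the regions called in the authors' tables, 36 of 127 in KO against WT and 5 of 99 in addback against KO had an absolute log2 fold of at least 1, and without regions that end at an opposite-strand gene 115 and 89 were called. The median log2 fold of all genes in KO against WT was -0.47 here, -0.34 with upper quartile factors, -0.21 with DESeq2 size factors and -0.12 with TMM factors from all tested genes. Matching regions by an overlap of at least 50% in place of the name, and ZNF symbols alone (91) in place of the symbol rule (96), kept the listed share and the number of zinc finger hosts within 1.5 times.

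Of 1523 values of named genes under an alternative, 1266 kept direction and call, 159 lost the call, 56 gained one and 42 turned in sign; the cause was not tested. In KO against WT, the folds that turned with TMM factors from all tested genes were those of ZNF121 (0.062), ZNF226 (0.21), ZNF568 (0.054) and WDR18 (0.11), and with DESeq2 size factors or the DESeq2 test ZNF226 (0.13 and 0.13) and WDR18 (0.035 and 0.035). Background subtraction turned LOC400685 (1.32) and ZNF568 (0.15), and at 2 times BST2 (1.71), LOC400685 (3.61), ZNF846 (1.94), ZNF568 (0.95), ZNF701 (0.19), ZNF816 (0.64), LILRA6 (0.96) and SIGLEC10 (0.29). In addback against KO, TMM factors from all tested genes turned DYRK1B (-0.093), ZNF8 (-0.017), ZNF121 (-0.080) and ZNF226 (-0.061), and DESeq2 size factors and the DESeq2 test turned DYRK1B (-0.054 and -0.054), ZNF121 (-0.040 and -0.041) and ZNF226 (-0.021 and -0.022). Background subtraction turned ZNF568 (-0.094), ZNF701 (-0.51) and ZNF816 (-0.68), and at 2 times CLEC11A (-0.053), NTF4 (-0.083), ZNF8 (-0.014), ZNF221 (-0.24), ZNF773 (-0.00039), ZNF568 (-0.87), ZNF160 (-6.58), ZNF701 (-3.05), ZNF816 (-7.99), SIGLEC10 (-1.77) and ZNF611 (-0.70). Hosts near 0 in KO rest on few counts, and regions carry no value per library, which limits what either can show.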
